A study of Mus musculus with 298 samples.

Results

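Neurons of the suprachiasmatic nucleus (SCN) of the mouse hypothalamus that were recorded at night and labelled active were compared with those labelled silent. The cells were chosen by their labels for time of day and firing alone, which gave 156 cells, 52.3% of those in the series: 87 active cells (41 labelled cFOS+ and 46 labelled cFOS-) and 69 silent cells (34 labelled cFOS+ and 35 labelled cFOS-). A further 5 night cells labelled depolarized were not used. Day cells, 78 active and 49 silent, are set beside the night values in places. All cells are given as SCN interneurons of mice held in a cycle with 12 h of light, and night slices were cut near ZT12, the time of lights off. No genotype, treatment, strain, sex or age is given in the sources used here. Each neuron was patched, recorded for some minutes and emptied into the pipette, and its transcripts were sequenced as 1 library.

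A slice could give several neurons, and no label ties a cell to a slice or animal. Cells are therefore not replicates of a condition. Each group was treated as 1 sample, no difference was tested, and every statement below describes these collections of cells. Levels are counts per 1000000 reads (CPM). A pooled CPM sums the reads over all cells of a group, its 95% interval is the exact Poisson interval, and that interval covers the counting error of reads only. A pooled level does not separate more cells with a transcript from more transcript per cell, so the share of cells with at least 10 CPM and the lowest, median and highest cell are given beside it. Intervals on such shares treat cells as independent draws, so whether they overlap or lie apart is no test between the groups. Ratios are log2 of (CPM + 1) in active cells over (CPM + 1) in silent cells. CPM is not scaled to transcript length, so levels are compared between groups and not between genes.

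SCN neurons are GABAergic clock cells that fire faster by day than at night and that release peptides such as VIP and vasopressin. Inside each cell, CLOCK and BMAL1 drive Per, Cry, Rev-erb and Dec genes through E-box elements, and the products of those genes feed back on that drive. Firing admits calcium, and calcium and cAMP signals induce immediate early genes such as Fos and Nr4a1, in part through CREB at cAMP response elements.

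Depth was alike in both groups. The median was 6383791 reads in active cells (3187057 to 20074911) and 6371982 reads in silent cells (3239417 to 25535298), with medians of 4430 and 4411 detected genes among 22800 gene symbols. Neuron markers summed to a median of 5544 CPM in active and 5584 CPM in silent cells. Libraries stood apart in 2 cases, both labelled active. In the first, cFOS+, fewer than 500 genes reached 10 CPM, and in the second, cFOS-, neuron markers summed to 151 CPM and microglia markers to 37215 CPM. The second library goes against its neuron label. Of a pair of night silent libraries with nearly the same profile (Pearson correlation of 0.9995 across genes, against 0.636 for the next of 12246 pairs) and opposite cFOS labels, 1 was left out. The pooled level of Fos itself did not follow the cFOS label at night: active cells had 1633 CPM when labelled cFOS+ and 2712 CPM when labelled cFOS-, and silent cells had 1552 and 1989.95 CPM. The share of cells with at least 10 CPM of Fos was 95.1% in active cFOS+ and 82.6% in active cFOS- cells, and 82.4% and 82.9% in silent cells.

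Promoter windows of 3 genes that recur below are shown because 1 belongs to the activity genes and 2 to the clock feedback genes, and all were higher in active cells. Each is the stretch of 250 bases before the gene's start in RefSeq (GRCm38.p6), read on the gene's strand, with a cAMP response element (TGACGTCA) or E-box (CACGTG) in capitals. The gene spans printed below are from GENCODE, where the starts of Btg2 and Ciart differ from those in RefSeq. The Ciart window therefore runs into the Ciart span, and distances are from the RefSeq start. Both motifs read the same on either strand and were searched by exact match. The Btg2 window is chr1:134079156-134079405, the Ciart window chr3:95882229-95882478 and the Bhlhe41 window chr6:145865421-145865670, all on the minus strand.
Btg2: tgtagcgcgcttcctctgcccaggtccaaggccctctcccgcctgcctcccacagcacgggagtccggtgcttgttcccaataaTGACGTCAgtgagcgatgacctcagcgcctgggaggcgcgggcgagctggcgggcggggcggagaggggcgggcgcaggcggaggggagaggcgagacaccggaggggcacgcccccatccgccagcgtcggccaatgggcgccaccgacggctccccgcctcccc
Ciart: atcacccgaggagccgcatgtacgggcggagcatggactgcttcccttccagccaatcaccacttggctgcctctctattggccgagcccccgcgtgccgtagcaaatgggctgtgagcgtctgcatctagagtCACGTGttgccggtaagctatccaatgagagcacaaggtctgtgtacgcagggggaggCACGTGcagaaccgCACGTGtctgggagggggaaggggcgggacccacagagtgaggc
Bhlhe41: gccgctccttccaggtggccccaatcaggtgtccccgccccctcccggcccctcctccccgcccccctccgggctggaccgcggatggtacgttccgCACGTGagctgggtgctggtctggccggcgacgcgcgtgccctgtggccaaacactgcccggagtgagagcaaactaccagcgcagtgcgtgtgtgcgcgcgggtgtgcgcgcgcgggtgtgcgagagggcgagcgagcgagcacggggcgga
The single E-box of Bhlhe41 begins 153 bases before the start, and the 3 E-boxes of Ciart begin between 116 and 44 bases before it. Among 27025 such windows of all genes, 1.77% held TGACGTCA and 6.86% held CACGTG. Of 29 immediate early genes with a window, 4 (13.8%) held TGACGTCA, namely Btg2, Dusp1, Maff and Plk2. Of 22 clock genes with a window, 5 (22.7%) held CACGTG, namely Per1, Cry1, Tef, Ciart and Bhlhe41, and so did 6 of the 29 immediate early genes (20.7%). These are matches of letters, and binding was not measured.

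Most activity-dependent immediate early genes were higher in the active cells, by a margin that differed between subsets of cells. Of 42 listed genes 38 reached 5 CPM in a group, and 26 of these were higher in active cells and 12 lower, with a median log2 ratio of 0.28. Over all 11831 genes at that level 50.5% were higher in active cells, and the median was 0.01. Every list count over all night cells below is to be read beside that share. At least 2-fold higher were 6 of the 38 members (Nr4a1, Btg2, Homer1, Fosl1, Trib1 and Nptx2), against 12.1% of all genes, and at least 2-fold lower was 1 member, Ier2, against 10.4%. A single cell held a median of 14 members at 10 CPM among active cells (4 to 29) and 12 among silent cells (4 to 26). The per-cell counts overlap over nearly their whole range.

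Fos (chr12:85473890-85477273, plus strand), the AP-1 subunit commonly read as a mark of recent activity, was present in most cells of either kind. It ran from 0 to 15716 CPM in active cells with a median of 1323, and from 0 to 9749 CPM in silent cells with a median of 915. Pooled, it was at 2193 CPM (95% interval 2189 to 2197) in active cells and 1780 CPM (1776 to 1784) in silent cells, a log2 ratio of 0.30. At least 10 CPM was found in 77 of 87 active cells (88.5%, exact binomial 95% interval 79.9 to 94.3%) and 57 of 69 silent cells (82.6%, 71.6 to 90.7%). The cells of both groups covered much the same range. The ratio was 0.07 within cFOS+ and 0.45 within cFOS- cells. Egr1, a zinc finger factor of the same early wave, was likewise abundant in both, with pooled 1868 CPM in active and 1626 CPM in silent cells and medians of 1008 and 1036 CPM.

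Larger differences lay in genes that fewer cells held. Nr4a1 (chr15:101254269-101274795, plus strand), an orphan nuclear receptor induced by calcium signals, was at 83.6 CPM (82.9 to 84.4) in active cells and 27.3 CPM (26.9 to 27.8) in silent cells, a log2 ratio of 1.58. The median cell of either group had 0 CPM, and the highest cells had 1041 CPM among active and 285.6 CPM among silent cells. It reached 10 CPM in 28 of 87 active cells (32.2%, 22.6 to 43.1%) and 9 of 69 silent cells (13.04%, 6.14 to 23.3%). Within the cFOS labels the ratio was 2.36 in cFOS+ and 1.40 in cFOS- cells, and in day cells it was 0.34.

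Btg2 (chr1:134075170-134079120, minus strand), an antiproliferative early gene, had 291.6 CPM (290.3 to 292.99) in active cells, against 89.0 CPM (88.1 to 89.8) in silent cells, a log2 ratio of 1.70 with 1.42 in cFOS+ and 1.83 in cFOS- cells. The highest active cell had 4213 CPM and the highest silent cell 1508 CPM, with medians of 0.520 and 0 CPM. A level of 10 CPM was reached in 45.98% of active cells (35.2 to 57.0%) and 34.8% of silent cells (23.7 to 47.2%). Homer1 (chr13:93299635-93405129, plus strand), a scaffold of the postsynaptic density with an activity-induced short form that these counts do not separate, was at 64.2 CPM in active and 30.3 CPM in silent cells, a log2 ratio of 1.06. It reached 10 CPM in 44.8% of active (34.1 to 55.9%) and 27.5% of silent cells (17.5 to 39.6%), and by day its ratio was 1.27. Fosl1 (chr19:5447547-5455946, plus strand), an AP-1 partner of Jun proteins, stood at 36.3 CPM in active and 11.03 CPM in silent cells, a log2 ratio of 1.63, and 16 active against 8 silent cells reached 10 CPM.

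The pseudokinase gene Trib1 was at 17.8 CPM in active and 0.0909 CPM in silent cells. It reached 10 CPM in 10 of 87 active cells (11.5%, 5.65 to 20.1%) and in 0 of 69 silent cells, which allows a share of up to 4.35% by a limit of 3 cells (exact binomial upper limit 5.21%). The active level rested on few cells, since 1 cell held 48.6% of the Trib1 reads of the group. Atf3, a stress and activity-induced factor, was at 215 CPM in active and 122.3 CPM in silent cells (log2 ratio 0.81), and the AP-1 subunit gene Junb had a log2 ratio of 0.49. Fosb, Jun and Arc, whose product acts at synapses, differed little when pooled, with log2 ratios of 0.16, 0.07 and 0.11. Not every early gene was higher in active cells. Ier2 was at 63.2 CPM in active and 131 CPM in silent cells, a log2 ratio of -1.04, with 20 of 87 and 22 of 69 cells at 10 CPM, and Nr4a3 was at 13.9 and 23.5 CPM. Klf10 was at 84.2 CPM in active and 156 CPM in silent cells, but 64.8% of its reads in silent cells came from 1 cell and the ratio without the top cell of each group was 0.34.

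**Figure D1:**
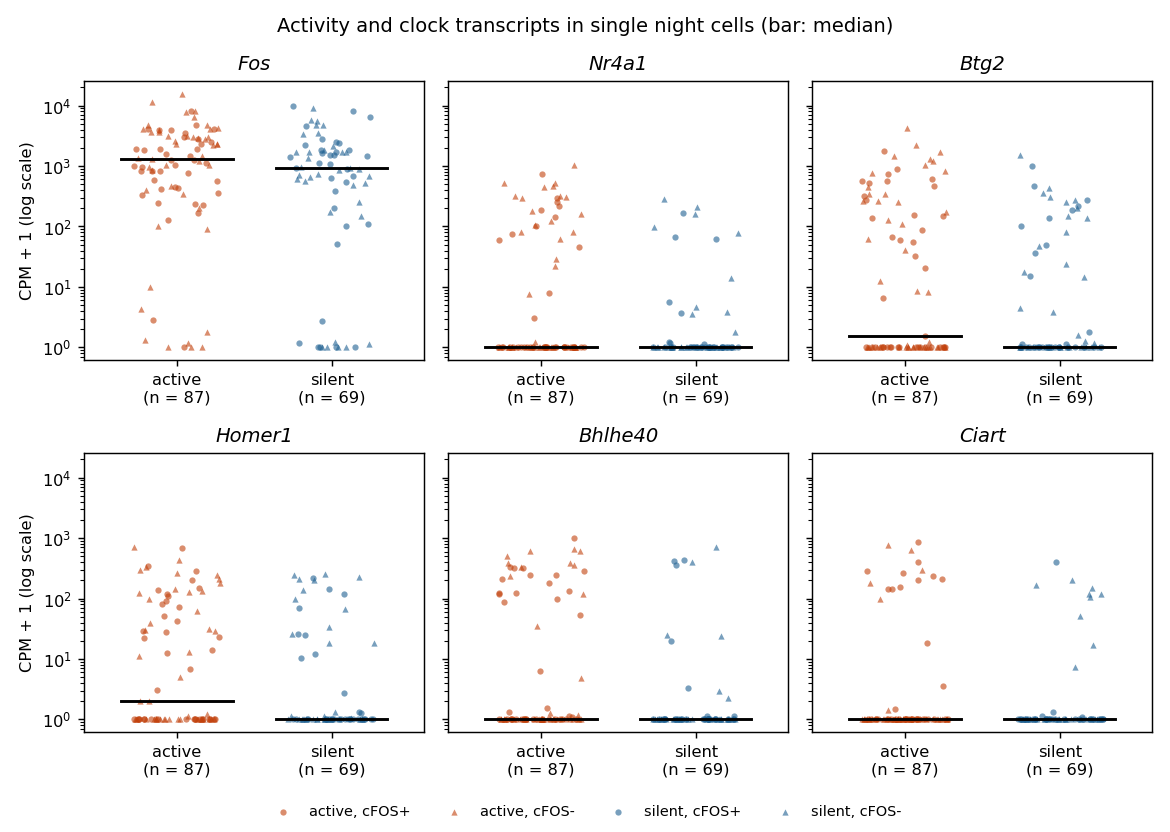
Each point is 1 night cell, active on the left (n = 87) and silent on the right (n = 69) of each panel; the y axis is CPM + 1 on a log scale, circles are cFOS+ and triangles cFOS- cells, and bars are medians. Fos fills the same range in both groups, while Nr4a1, Bhlhe40 and Ciart are at or near 0 in most cells. Nr4a1 and Bhlhe40 have more high cells among the active ones (28 against 9 cells at 10 CPM for Nr4a1, and 27 against 8 for Bhlhe40).

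In the plot of activity and clock transcripts in single cells, Nr4a1, Btg2, Homer1 and Bhlhe40 had both a higher pooled level and a larger share of cells at 10 CPM among active cells, in each cFOS label. The direction of the early gene list was the same within each cFOS label. Among cells numbered below 400 in their titles 22 of 38 members were higher (median 0.07, where 50.2% of all genes were higher), and among those numbered above 400 it was 27 of 38 (median 0.71, where 50.9% were). In cFOS+ cells 27 of 38 members were higher in active cells (median 0.33), where 48.2% of all genes were higher, and in cFOS- cells 23 of 38 were (median 0.25), where 52.0% of all genes were higher. Without the 2 libraries that stood apart, a setting added after the data were seen, 27 of 38 members were higher (median 0.27), beside 50.4% of all genes, and the ratio of Atf3 was 0.51. In day cells 30 of 39 members were higher in active cells with a median of 0.39, beside 50.7% of all genes by day.

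Clock genes as a whole differed little, and members at least 2-fold apart were no more frequent than among all genes. Of 28 listed clock genes 27 were measured, 18 higher and 9 lower in active cells, with a median log2 ratio of 0.10, where 50.5% of all genes were higher. A cell held a median of 10 clock genes at 10 CPM in both groups (0 to 19 in active and 3 to 17 in silent cells). At least 2-fold higher were 3 of the 27 members, Bhlhe40, Ciart and Bhlhe41, where 12.1% of all genes were, and at least 2-fold lower were 2, Btrc among them, where 10.4% of all genes were.

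Bhlhe40 (chr6:108660629-108666925, plus strand) encodes DEC1, a repressor that binds E-boxes and is also induced by neuronal activity. It was at 98.0 CPM (97.2 to 98.8) in active cells and 25.8 CPM (25.3 to 26.2) in silent cells, a log2 ratio of 1.89 with 1.70 in cFOS+ and 2.05 in cFOS- cells. The median of each group was 0 CPM, and the highest cells were at 996 CPM among active and 723 CPM among silent cells. At least 10 CPM was found in 27 of 87 active cells (31.03%, 21.5 to 41.9%) and 8 of 69 silent cells (11.6%, 5.14 to 21.6%). In day cells the level was 81.3 CPM in active and 80.8 CPM in silent cells. Its paralog Bhlhe41, encoding DEC2, was at 35.4 CPM in active and 16.4 CPM in silent cells (log2 ratio 1.07), with 30 and 13 cells at 10 CPM (34.5%, 24.6 to 45.4%, and 18.8%, 10.4 to 30.1%). By label its ratio was 2.07 in cFOS+ and 0.29 in cFOS- cells, and by day it was -0.37.

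Ciart (chr3:95878503-95882251, minus strand), the CHRONO repressor of CLOCK and BMAL1 whose window holds 3 E-boxes, was at 56.2 CPM (55.6 to 56.8) in active cells, against 15.7 CPM (15.3 to 16.1) in silent cells, a log2 ratio of 1.78. It was at or near 0 CPM in most cells. The limit of 10 CPM was met in 16 active cells (18.4%, 10.9 to 28.1%) and 9 silent cells (13.04%, 6.14 to 23.3%), and the highest cells were at 863.4 and 406.2 CPM. The ratio was 2.48 in cFOS+ and 1.15 in cFOS- cells. The shares at 10 CPM did not follow it in both labels: 11 of 41 active and 1 of 34 silent cells in cFOS+, but 5 of 46 active (10.9%) and 8 of 35 silent cells (22.9%) in cFOS-. Other genes with an E-box in the window behaved otherwise. Cry1, a core repressor, was at 213 CPM in active and 148 CPM in silent cells (0.53), and the output factor Tef was lower in active cells, at 49.3 against 85.0 CPM (-0.77).

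Among the period genes, the share of cells and the pooled level of Per1 pointed in different directions. Per1, whose transcription also answers to cAMP, reached 10 CPM in 40 of 87 active cells (45.98%, 35.2 to 57.0%) and 20 of 69 silent cells (28.99%, 18.7 to 41.2%). Its pooled level was 50.5 CPM in active and 56.4 CPM in silent cells, a log2 ratio of -0.16, and 1 silent cell held 39.5% of the Per1 reads of its group. Per2 was at 301 CPM in active cells (0 to 1799, median 268) and 226 CPM in silent cells (0 to 1514, median 65.2), a log2 ratio of 0.41, with 66.7% and 55.1% of cells at 10 CPM. Nr1d1, encoding the repressor REV-ERB alpha, was at 281.8 and 262.2 CPM pooled, although the median active cell had 141 CPM and the median silent cell 23.9 CPM. Arntl, encoding BMAL1, was at 252.8 CPM in active and 208 CPM in silent cells.

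Lower in active cells was Btrc, which encodes a substrate receptor of the ubiquitin ligase that marks phosphorylated PER proteins for degradation. It was at 68.2 CPM (67.6 to 68.9) in active cells, against 184 CPM (183 to 186) in silent cells, a log2 ratio of -1.42, with -1.12 in cFOS+ and -1.70 in cFOS- cells. At least 10 CPM was found in 21 of 87 active cells (24.1%, 15.6 to 34.5%) and 36 of 69 silent cells (52.2%, 39.8 to 64.4%), and the medians were 0 and 21.2 CPM. By day its ratio was 0.30. The nuclear receptor gene Rora was at 292 CPM in active and 402.6 CPM in silent cells (-0.46) and its relative Rorb at 181.1 and 124 CPM (0.54). The clock list counted 18 members higher in cFOS+ cells and 12 in cFOS- cells, where 48.2% and 52.0% of all genes were higher. Without the 2 libraries that stood apart it counted 18 (median 0.13), where 50.4% of all genes were higher. By day, 15 of 28 members were higher in active cells, with a median of 0.02, where 50.7% of all genes were higher.

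Peptide transcripts, which mark SCN neuron classes, differed by large factors between the groups and also within them, because a peptide was abundant in few cells and near 0 in the rest. Of 21 listed peptides 16 were measured, 9 higher and 7 lower in active cells, with a median log2 ratio of 0.66 that turned to -0.06 when the top cell of each group was left out and to -0.88 among cell numbers above 400. Over all genes 50.5% were higher in active cells. At least 2-fold apart were 6 of the 16 peptides upward and 4 downward, where 12.1% and 10.4% of all genes were. A cell of either group held a median of 2 peptides at 10 CPM (0 to 6 in both groups). None of 13 main peptides reached 100 CPM in 16.1% of active cells (exact binomial interval 9.09 to 25.5%) and 15.9% of silent cells (8.24 to 26.7%).

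Vip (chr10:5639218-5647617, plus strand), the peptide of the light-recipient core, was at 3914 CPM (3909 to 3919) in active cells, against 1768 CPM (1764 to 1772) in silent cells, a log2 ratio of 1.15. It reached 100 CPM in 19 of 87 active cells (21.8%, 13.7 to 31.98%) and 11 of 69 silent cells (15.9%), and its highest cells, 58224 CPM among active and 52743 CPM among silent cells, were alike. The ratio was 1.5 within cFOS+ and 0.46 within cFOS- cells and -1.06 among cells numbered above 400 in their titles. Day cells had 2781 CPM when active and 271.7 CPM when silent.

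Penk (chr4:4133531-4138819, minus strand), the precursor of enkephalins, was at 434.2 CPM (432.5 to 435.8) in active cells, against 195.5 CPM (194.3 to 196.8) in silent cells, a log2 ratio of 1.15 with 2.17 in cFOS+ and 0.72 in cFOS- cells. A level of 10 CPM was found in 28 active cells (32.2%, 22.6 to 43.1%) and 13 silent cells (18.8%, 10.4 to 30.1%), and cells ran from 0 to 6662 CPM among active and 0 to 7346 CPM among silent cells with a median of 0 in each. By day the ratio was -1.13. The dynorphin precursor Pdyn was at 25.1 CPM in active and 2.31 CPM in silent cells, with 7 of 87 active cells and 1 of 69 silent cells at 10 CPM. Prok2, whose product is released by SCN neurons as a circadian output, was at 21.1 and 4.51 CPM (log2 ratio 2.00), with 12 active and 6 silent cells at 10 CPM. Sst was at 393.2 CPM in active and 208 CPM in silent cells, in 12 and 4 cells at 10 CPM (13.8%, 7.34 to 22.9%, and 5.80%, 1.6 to 14.2%). Its log2 ratio was 0.92, but -0.75 among cells numbered below 400. Nms, the neuromedin S precursor of a broad pacemaker class, had a log2 ratio of 0.43. Its share at 10 CPM pointed the other way, with 28 of 87 active cells (32.2%) and 27 of 69 silent cells (39.1%).

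Avp (chr2:130580620-130582554, minus strand), the vasopressin precursor of the shell, pointed the other way. It was at 1030 CPM (1028 to 1033) in active cells, against 1435 CPM (1432 to 1439) in silent cells, a log2 ratio of -0.48, with -0.34 in cFOS+ and -0.68 in cFOS- cells. The highest cells were at 22598 CPM among active and 19777 CPM among silent cells, and the groups overlap throughout. At least 100 CPM was found in 24 of 87 active cells (27.6%) and 27 of 69 silent cells (39.1%). In day cells Avp was also lower in active cells, at 2247 against 5759 CPM.

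Cck was at 16.3 CPM in active and 86.0 CPM in silent cells, with 6 (6.90%, 2.57 to 14.4%) and 12 (17.4%, 9.32 to 28.4%) cells at 10 CPM, and 1 silent cell held 72.8% of the reads of its group. Galanin (Gal) was at 28.3 and 155 CPM, a log2 ratio of -2.42, although 7 cells of each group reached 10 CPM. Trh was at 659 CPM in active and 1500 CPM in silent cells and its ratio was 0.26 within cFOS- cells. The tachykinin precursor Tac1 (161.5 against 1.92 CPM) and neurotensin (Nts, 541 against 31.2 CPM) were higher in active cells by level, but 1 active cell held 98.6% of the Tac1 and 78.0% of the Nts reads of the group.

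**Figure D2:**
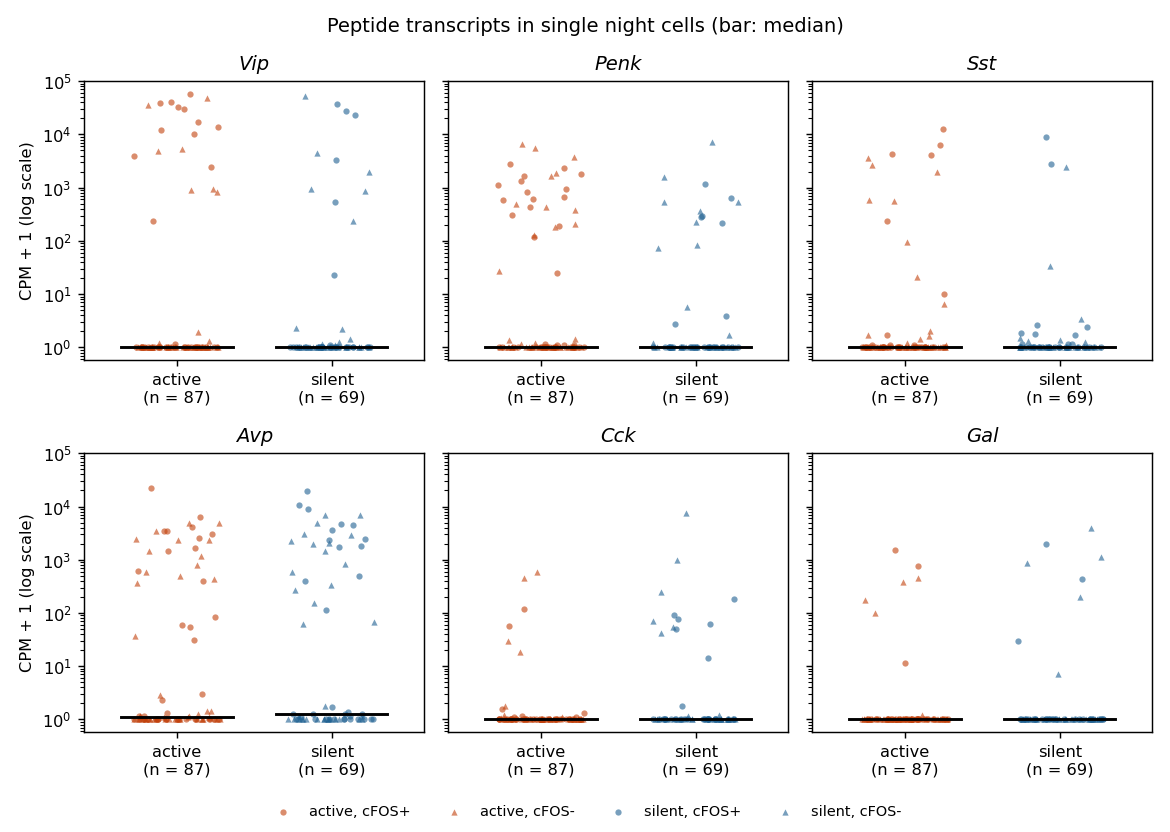
Peptide transcripts in single night cells, active left (n = 87) and silent right (n = 69) in each panel, as CPM + 1 on a log y axis with bars at the median; circles are cFOS+ and triangles cFOS- cells. Each peptide is near 0 in most cells and high in a minority, with more high cells among active cells for Penk (28 against 13 at 10 CPM) and Sst (12 against 4), and overlapping ranges for Vip and Avp.

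Receptors for these peptides showed no common direction. Of 17 measured receptors 6 were higher and 11 lower in active cells (median -0.25), where 50.5% of all genes were higher. Vipr2, the VPAC2 receptor through which VIP acts in the SCN, was at 238.01 CPM in active and 283.9 CPM in silent cells, in 31 of 87 and 32 of 69 cells at 10 CPM. Prokr2, the receptor of the Prok2 product, was at 147 and 199.1 CPM. The neuropeptide Y receptor gene Npy1r (30.4 against 8.997 CPM, log2 ratio 1.65) and the kappa opioid receptor gene Oprk1 (20.2 against 4.38 CPM, 1.98) were higher in active cells, with 8 active and 5 silent cells at 10 CPM for Npy1r and 4 active and 2 silent cells for Oprk1.

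Ion channel genes differed by class, with median log2 ratios of 0.71 for leak and inward rectifier potassium channels, 0.40 for calcium and HCN channels, 0.15 for voltage-gated potassium channels and -0.05 for sodium and leak channels. Of 28 measured calcium and HCN channel genes, which include the intracellular release channels, 21 were higher and 7 lower in active cells, where 50.5% of all genes were higher. In single cells a median of 9 of them reached 10 CPM among active cells and 7 among silent cells (0 to 19 in both groups). Of 29 listed, all but 1 were measured. Without the cells that held at least 100 CPM of summed microglia markers, 29 active and 23 silent cells, 16 of 28 were higher with a median of 0.03, where 49.9% of all genes were higher. Without the 2 libraries that stood apart it was 22 of 28 with a median of 0.39, where 50.4% of all genes were higher. Microglia marker genes summed to 0 to 37215 CPM in active cells (median 3.18) and 0 to 18235 CPM in silent cells (median 4.34), and 4 of 12 measured markers were higher in active cells; their part in the channel result beyond the values given was not tested.

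Cacna1b, the pore of the N-type channel that supports transmitter release, was at 77.2 CPM (76.5 to 77.9) in active cells, against 32.1 CPM (31.5 to 32.6) in silent cells, a log2 ratio of 1.24 with 1.54 in cFOS+ and 1.08 in cFOS- cells. At least 10 CPM was found in 35 active cells (40.2%, 29.9 to 51.3%) and 19 silent cells (27.5%, 17.5 to 39.6%), with highest cells of 1088 and 317.9 CPM. Without cells with microglia markers the ratio was 1.44, and in day cells it was -0.31. The L-type genes Cacna1c and Cacna1d, which carry calcium near the firing threshold in SCN neurons, had ratios of 0.76 and 0.37.

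Ryr3, a calcium release channel of the endoplasmic reticulum, was at 65.8 CPM (65.2 to 66.5) in active cells, against 13.8 CPM (13.4 to 14.1) in silent cells. Its log2 ratio was 2.18 pooled and within each cFOS label, and 24 of 87 active cells (27.6%, 18.5 to 38.2%) and 8 of 69 silent cells (11.6%, 5.14 to 21.6%) reached 10 CPM. By day it was at 51 CPM in active and 18.5 CPM in silent cells. The inositol trisphosphate receptors of the same store, Itpr1 and Itpr2, were at 19.5 against 5.90 CPM and 31.7 against 10.5 CPM.

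T-type channel genes, whose channels open at low voltage, differed from each other. Cacna1i was at 11.7 CPM in active and 0.330 CPM in silent cells and reached 10 CPM in 7 of 87 active cells (8.05%, 3.30 to 15.9%) and 0 of 69 silent cells, which allows up to 4.35% by the limit of 3 cells (exact upper limit 5.21%). Cacna1g, another T-type gene, was at 87.1 CPM in active and 153 CPM in silent cells (-0.81), in 34 and 36 cells at 10 CPM. Of the pacemaker HCN genes, Hcn2 was at 3.98 CPM in active and 16.99 CPM in silent cells (-1.85) with 8 of 87 active cells (9.20%, 4.05 to 17.3%) and 15 of 69 silent cells (21.7%, 12.7 to 33.3%) at 10 CPM.

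Sodium and leak channel genes were also split, with 5 of 15 measured members higher in active cells, beside 50.5% of all genes, and a median of -0.05. Scn9a, the Nav1.7 pore, was at 171.8 CPM (170.7 to 172.8) in active cells (0 to 1313, median 40.1) and 72.8 CPM (72.01 to 73.5) in silent cells (0 to 871, median 2.58), a log2 ratio of 1.23, with 48 and 29 cells at 10 CPM (55.2%, 44.1 to 65.9%, and 42.03%, 30.2 to 54.5%). Scn2a1, the Nav1.2 pore, was at 96.4 and 52.8 CPM (0.86), with 51.7% and 40.6% of cells at 10 CPM. Scn8a, the Nav1.6 pore found at the axon initial segment, was lower in active cells at 52.3 against 92.8 CPM (-0.82), with the same sign in both cFOS labels. Nalcn, the background sodium leak channel that depolarizes SCN neurons, was at 119.4 CPM in active and 120.2 CPM in silent cells, while Fam155a, its auxiliary subunit, was at 73.4 and 34.7 CPM (1.06, with 3.17 in cFOS+ and 0.19 in cFOS- cells).

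Of 25 measured voltage-gated potassium channel genes 15 were higher in active cells (median 0.15), beside 50.5% of all genes. Among the 15 were the ERG channel gene Kcnh2 at 33.1 against 15.9 CPM and the Shaker gene Kcna2 at 8.36 against 2.25 CPM. Kcnc1 and Kcnc2, fast Kv3 channels of repetitive firing, had ratios of -0.10 and -0.48. Kcnma1, the BK channel that shapes the day and night firing of the SCN, was at 62.02 CPM in active and 49.3 CPM in silent cells (0.32). Of 11 measured leak and inward rectifier genes 8 were higher, beside 50.5% of all genes. The median over the list of 0.71 was 0.91 when cells with microglia markers were left out, and it was 0.43 in cFOS+ and 0.66 in cFOS- cells. Among cell numbers below 400 it was 0.29, with 6 of 11 genes higher beside 50.2% of all genes. Above 400 it was 1.16, with 7 of 11 higher beside 50.9% of all genes. The GIRK1 gene Kcnj3 was at 27.9 against 6.67 CPM, while the TWIK1 gene Kcnk1 was at 30.1 against 66.8 CPM. Kcnk13, a leak channel gene, was at 17.2 CPM in active cells, 4 of which reached 10 CPM, and had no read in silent cells. A limit of 3 cells allows a share of up to 4.35% in silent cells (exact binomial upper limit 5.21%), beside 4.6% in active cells. The active share thus lies below the exact limit for silent cells. By day 4 of 12 leak and inward rectifier genes were higher in active cells (median -0.39), beside 50.7% of all genes, and Kcnj3 was at 5.05 CPM in active and 36.1 CPM in silent cells.

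**Figure D3:**
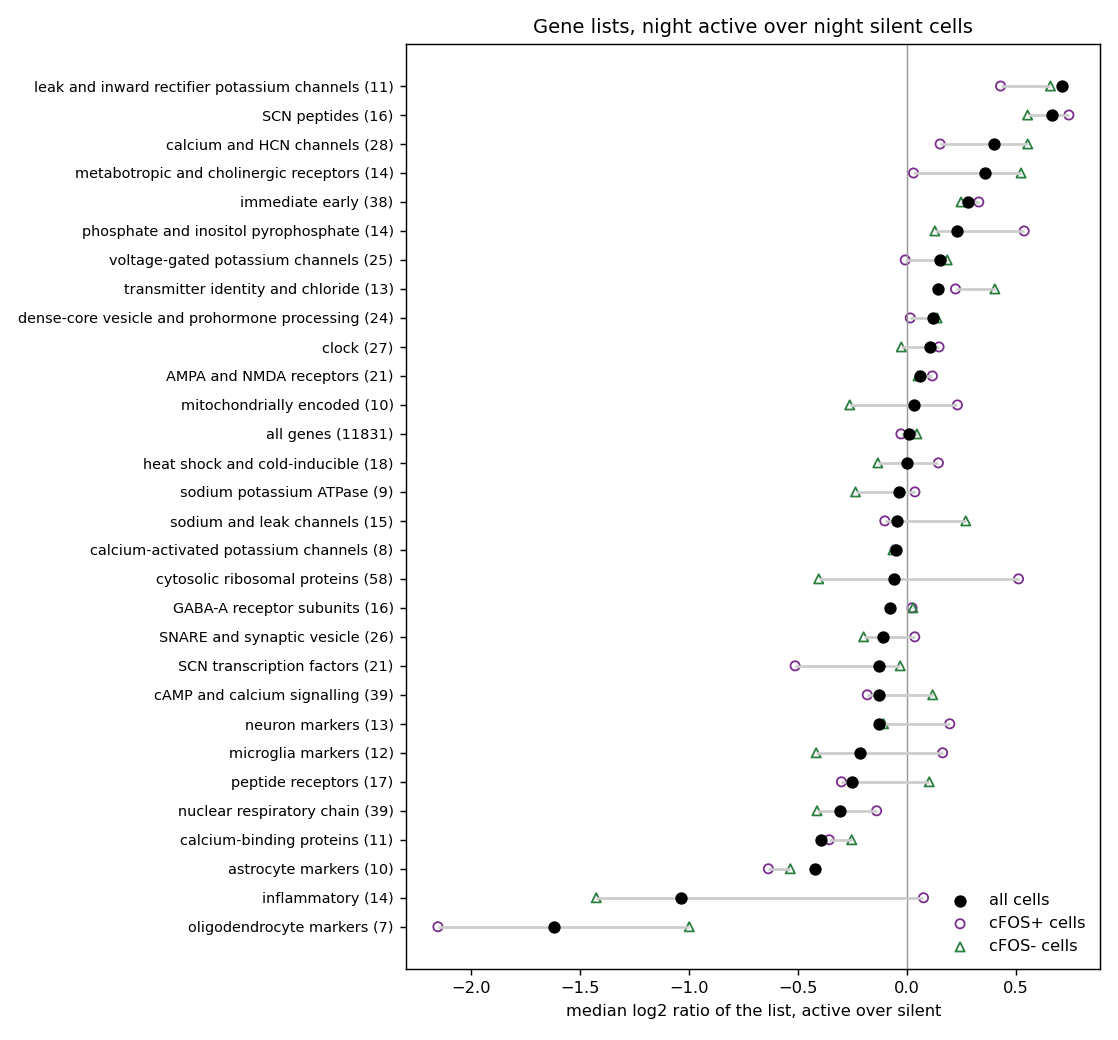
Median log2 ratio, night active over night silent, of each gene list with at least 5 measured genes (their number in brackets) for all cells (black), cFOS+ cells (open purple circles) and cFOS- cells (open green triangles). Most lists lie near the median of all genes. Leak and inward rectifier potassium channels lie highest at 0.71, followed by SCN peptides at 0.66. Calcium and HCN channels (0.40) and metabotropic and cholinergic receptors (0.36) also lie above the early genes (0.28). Inflammatory and oligodendrocyte genes lie lowest at -1.04 and -1.62.

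GABAergic identity was shared by both groups. Gad1, which makes GABA, was at 1339 CPM in active cells (median 957) and 1129 CPM in silent cells (median 949), in 77 of 87 and 56 of 69 cells at 10 CPM, and Gad2 at 274.8 and 281.9 CPM. Of 16 measured GABA-A receptor subunit genes 6 were higher in active cells (median -0.08), beside 50.5% of all genes. Among the chloride carriers that set the sign of GABA responses, the importer Slc12a2 (NKCC1) was at 32.7 CPM in active and 11.2 CPM in silent cells (log2 ratio 1.47, with 3.15 in cFOS+ and 0.71 in cFOS- cells), in 19 and 9 cells at 10 CPM. The exporter Slc12a5 (KCC2) was at 122.5 and 99.9 CPM (0.29). By day the ratio of Slc12a2 was -0.52.

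Of 21 AMPA and NMDA receptor genes 12 were higher in active cells (median 0.06), beside 50.5% of all genes. The AMPA subunit gene Gria3 was at 49.4 against 22.01 CPM (1.13), and the kainate subunit gene Grik4 at 20.9 against 5.11 CPM with 12 against 2 cells at 10 CPM. The NMDA subunit gene Grin3a, which lowers calcium entry through the receptor, was at 8.69 CPM in active and 43.7 CPM in silent cells (-2.21, with -1.98 in cFOS+ and -2.37 in cFOS- cells), and 8 and 9 cells reached 10 CPM.

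Genes of the release machinery had no direction that held across subsets of cells. Of 26 measured SNARE and synaptic vesicle genes 9 were higher in active cells (median -0.11), where 50.5% of all genes were. But 13 were higher within cFOS+ cells (median 0.04), where 48.2% of all genes were. Without the top cell of each group 13 were higher (median -0.01), where 51.4% of all genes were. At least 2-fold lower were 3 of the 26, where 10.4% of all genes were. Vamp1, a vesicle SNARE, was at 2.45 CPM in active and 27.95 CPM in silent cells (-3.07), with 3 of 87 active cells (3.45%, 0.717 to 9.75%) and 9 of 69 silent cells (13.04%, 6.14 to 23.3%) at 10 CPM. Cplx1, a clamp of fusion, was at 38.6 and 84.9 CPM (-1.12), and the vesicle protein gene Sv2b at 0.0267 and 13.8 CPM with 0 active and 4 silent cells at 10 CPM. Rab27b, a GTPase that docks secretory granules, was at 34.01 CPM (33.5 to 34.5) in active cells, against 115 CPM (114 to 116) in silent cells, a log2 ratio of -1.73. It reached 10 CPM in 13 active cells (14.9%, 8.20 to 24.2%) and 24 silent cells (34.8%, 23.7 to 47.2%), and was lower in active cells in both cFOS labels (-1.54 and -1.85). Of the dense-core vesicle genes 15 of 24 were higher in active cells (median 0.12), beside 50.5% of all genes. On that list the granin gene Scg2 had a median of 2774 CPM in active and 5809 CPM in silent cells and Chga a pooled level of 1220 and 875 CPM.

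Second messenger genes showed no common direction, with 16 of 39 measured cAMP and calcium signalling genes higher in active cells (median -0.13), beside 50.5% of all genes. The adenylyl cyclase genes differed from each other. Adcy5 was at 52.5 CPM in active and 27 CPM in silent cells with 26 and 10 cells at 10 CPM, and Adcy3 at 90.9 and 135 CPM with 23 (26.4%, 17.6 to 36.98%) and 35 cells (50.7%, 38.4 to 63.0%). The phosphodiesterase gene Pde2a was at 299.9 and 156.6 CPM (0.93). Rgs8, which speeds the return of G proteins to rest, was at 1.27 CPM in active and 20.6 CPM in silent cells, but 2 and 5 cells held it at 10 CPM.

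Calcium-binding proteins were mostly lower in active cells, with 2 of 11 measured genes higher, beside 50.5% of all genes, and a median of -0.39. Calb1, a calcium buffer and a marker of part of the SCN core, was at 594 CPM in active and 707 CPM in silent cells, its relative Calb2 at 137 and 188 CPM, and the calcium sensor gene Ncald at 99.2 and 186 CPM. Transcription factors of SCN development were higher in active cells for 7 of 21 measured genes (median -0.13), for 10 within cFOS- cells (median -0.03) and for 11 without the top cell of each group (median 0.01). In the same order, 50.5%, 52.0% and 51.4% of all genes were higher. At least 2-fold lower were 5 of the 21, where 10.4% of all genes were. Without the top cells it was 3 of the 21, where 1286 of all 11831 genes were. The 5 were the homeobox genes Dlx1 (10.1 against 23.4 CPM), Dlx2 (15.3 against 38.3 CPM), Lhx2 (1.49 against 6.59 CPM) and Vax1 (8.10 against 21.3 CPM) and the zinc finger gene Zic1 (17.2 against 37.6 CPM). The ratio of Vax1 was 0.42 without Vip cells, that of Dlx1 was 0.045 without cells with microglia markers, and that of Zic1 was 0.60 without the 39 cells that had the fewest genes. Lhx1, which couples SCN neurons, was at 56.9 CPM in active and 47.4 CPM in silent cells.

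Phosphate transport was the subject of the study's title. On the phosphate and inositol pyrophosphate list 9 of 14 measured genes were higher in active cells, beside 50.5% of all genes. The list had a median log2 ratio of 0.23 (0.05 among cell numbers below 400 and 0.37 above), and its summed level per cell had a median of 1308 CPM in active and 957 CPM in silent cells. Slc20a1, the sodium-dependent importer PiT-1, was at 174 CPM (172.6 to 174.7) in active cells (0 to 1097, median 0.634) and 86.0 CPM (85.2 to 86.9) in silent cells (0 to 743, median 0.728). The log2 ratio was 1.0, with 0.72 in cFOS+ and 1.32 in cFOS- cells, while 37 active cells (42.5%) and 31 silent cells (44.9%) reached 10 CPM. Without cells with microglia markers its ratio was 0.35. In day cells it was at 171 CPM in active and 159 CPM in silent cells.

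The related importer Slc20a2 (PiT-2) was at 94.2 CPM (93.4 to 94.99) in active cells, against 84.7 CPM (83.9 to 85.5) in silent cells, in 24 of 87 and 21 of 69 cells at 10 CPM. Its ratio was 0.15 pooled, 0.51 within cFOS+ and -0.24 within cFOS- cells, so the direction differed between the labels. The phosphate exporter Xpr1, whose export is governed by inositol pyrophosphates, was at 121 and 85.2 CPM (0.50), in 42 and 33 cells at 10 CPM, and its ratio by day was -0.73. Among the enzymes that make inositol pyrophosphates, Ppip5k2 was at 80.6 CPM (79.9 to 81.3) in active cells, against 23.8 CPM (23.4 to 24.3) in silent cells, a log2 ratio of 1.72, with 33 of 87 active cells (37.9%, 27.7 to 48.97%) and 18 of 69 silent cells (26.1%, 16.3 to 38.1%) at 10 CPM. Ip6k1 was at 220 and 154 CPM (0.51). Itpk1, an earlier kinase of the pathway, was at 16.96 CPM in active and 41.8 CPM in silent cells (-1.25).

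Nuclear genes of the respiratory chain and ATP synthase were lower in active cells by small and uniform amounts. Of 39 measured genes 3 were higher and 36 lower, with a median log2 ratio of -0.31, where 50.5% of all genes were higher and none of the 39 differed by 2-fold. The count was 4 of 39 without the 2 libraries that stood apart (median -0.30) and 7 of 39 without Vip cells (median -0.27), where 50.3% of all genes were higher. Examples from complex I, complex IV and ATP synthase follow. Ndufb8 was at 225 CPM in active cells (0 to 826, median 201) and 363 CPM in silent cells (0 to 3163, median 272.6). Cox4i1 was at 496 CPM in active cells (median 417.4) and 711 CPM in silent cells (median 567.7). Atp5a1 was at 906 CPM in active cells (median 837) and 1175 CPM in silent cells (median 1017). Single cells of the groups overlapped for all of them. Summed over the list, a cell had a median of 8303 CPM when active (1149 to 24927) and 9282 CPM when silent (3620 to 35100).

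The size of the difference on this list depended on which night cells entered, while its median stayed below 0 in each set of them. In cFOS+ cells 14 of 39 were higher (median -0.14) and in cFOS- cells 4 of 39 (median -0.41), where 48.2% and 52.0% of all genes were higher. Among cell numbers below 400 it was 14 of 39 (median -0.13) and above 400 it was 5 of 39 (median -0.47), where 50.2% and 50.9% of all genes were higher. Without the cells with microglia markers, whose share was 33.3% in each group, 17 of 39 were higher, beside 49.9% of all genes, and the median was -0.06. In day cells 27 of 39 were higher in active cells, beside 50.7% of all genes, with a median of 0.11. Over all night cells 6 of 10 mitochondrially encoded genes were higher in active cells (median 0.03). Their median shifted between these sets of cells in the same direction as that of the nuclear list. It was 0.23 in cFOS+ and -0.26 in cFOS- cells, 0.25 without cells with microglia markers and 0.56 in day cells.

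**Figure D4:**
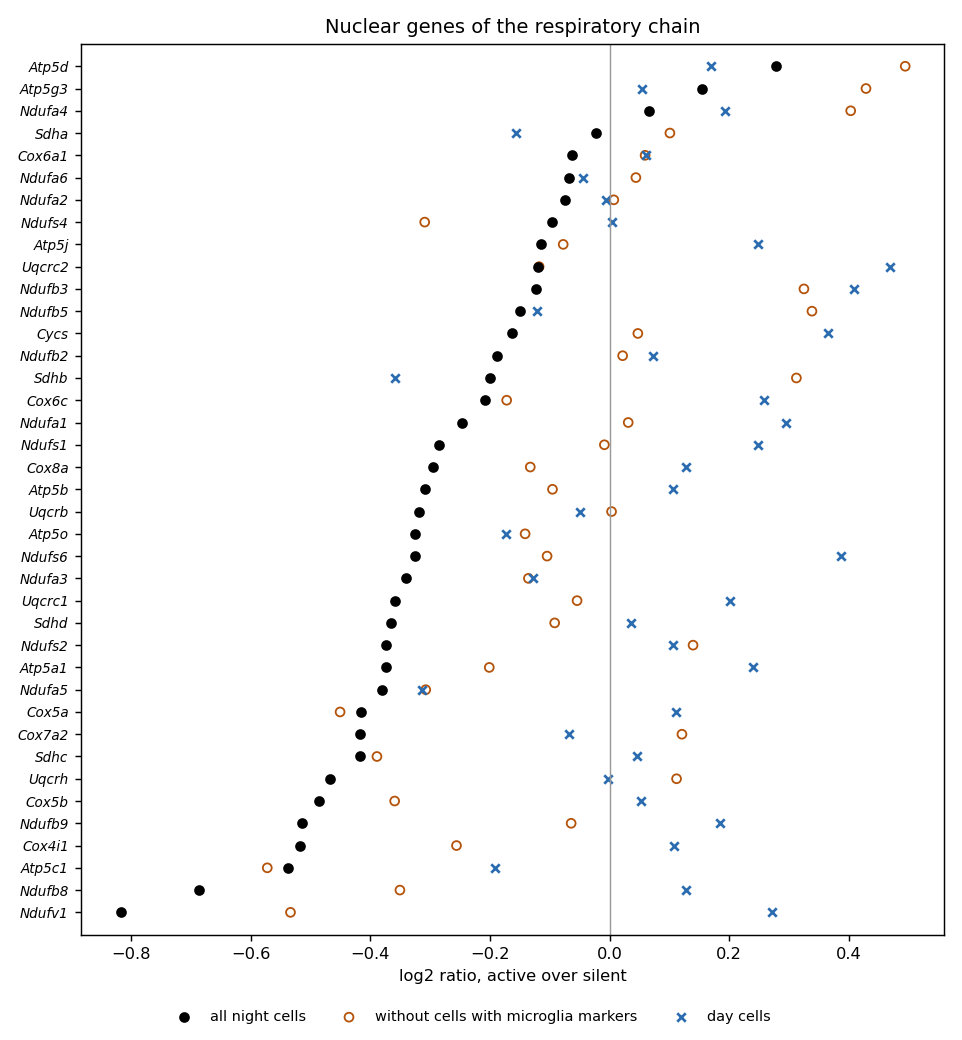
Log2 ratio, active over silent, of the 39 nuclear respiratory chain genes in all night cells (filled circles), in night cells without those holding microglia markers (open circles) and in day cells (crosses); the x axis is the log2 ratio. In all night cells 36 genes lie below 0, without cells with microglia markers 22 do, and by day 12 do.

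Markers of other cell types give the extent of RNA from outside the neuron. Oligodendrocyte markers were lower in active cells for all 7 measured genes (median -1.62). Their sum ran from 0 to 6085 CPM in active cells (median 10.5) and from 0 to 3998 CPM in silent cells (median 98.0), and at least 100 CPM was found in 31 of 87 active cells (35.6%, 25.6 to 46.6%) and 34 of 69 silent cells (49.3%, 37.02 to 61.6%). The myelin genes Mbp (94.1 against 205.95 CPM) and Mobp (22.1 against 69.8 CPM, 3 against 11 cells at 10 CPM) led by level, and on the deposited normalized scale the ratio of Mobp was 0.089. The defining lineage factor Sox10 was at 0 CPM in active and 0.544 CPM in silent cells. By day 5 of 8 oligodendrocyte markers were higher in active cells (median 0.27), beside 50.7% of all genes by day. The 12 measured microglia markers had a median of -0.22, which became -1.02 without the 2 libraries that stood apart. Of these libraries 1 held 37215 CPM of the markers. The median was -1.05 among cell numbers below 400, with 2 of 12 higher beside 50.2% of all genes. Above 400 it was 0.71, with 11 of 12 higher beside 50.9% of all genes. The defining gene Tmem119 was at 0.782 CPM in active and 0.140 CPM in silent cells and P2ry12 at 13.5 and 13.1 CPM. Astrocyte markers were higher in active cells for 4 of 10 measured genes (median -0.42), beside 50.5% of all genes.

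Inflammatory genes differed between the cFOS labels. They were lower in active cells for 11 of 14 measured members (median -1.04), where 50.5% of all genes were higher. Within cFOS+ cells 7 of 14 were higher (median 0.08) and within cFOS- cells 3 of 14 (median -1.42), where 48.2% and 52.0% of all genes were. An example of a lower member was the chemokine gene Ccl3 at 22.6 against 75.6 CPM, with 6 cells of each group at 10 CPM. Summed over the list, the median was 180.98 CPM in active cells (0 to 7806) and 122.4 CPM in silent cells (0 to 38278), so the median was higher in active cells and the highest cell was a silent one. Without cells with microglia markers 6 of 14 members were higher and 6 lower, where 49.9% of all genes were higher.

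Genes were then named by rule across the whole table: at least 20 CPM in a group, at least 10 CPM in 15% of that group's cells, and 1 direction in 9 measures, which include both cFOS labels and both ranges of cell numbers. Of 7136 genes past the level limits 2090 (29.3%) had 1 direction throughout, 934 higher and 1156 lower in active cells. The rule used the ratios and the shares of cells. The values of the genes taken from the top of each direction, 23 of which are given, are therefore a description.

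Higher in active cells was first Thsd7a, a thrombospondin-type adhesion protein, at 30.8 CPM in active and 1.41 CPM in silent cells (log2 ratio 3.72). It reached 10 CPM in 18 of 87 active cells (20.7%) and 2 of 69 silent cells (2.90%), and in day cells it was at 9.39 CPM in active and 45.4 CPM in silent cells. Dock11, an activator of the GTPase CDC42, was at 63.7 and 5.72 CPM (3.27), the deubiquitinase gene Usp40 at 64.1 and 4.97 CPM (3.45) and the centrosomal protein gene Cep95 at 39.9 and 2.62 CPM (3.50). For Dock11, 1 active cell held 56.0% and 1 silent cell 95.2% of the reads of its group, and the ratio was 6.45 in cFOS+ and 1.59 in cFOS- cells. Secreted or surface proteins among the genes higher in active cells were Nrg3, a ligand of the ERBB4 receptor (56.6 against 4.996 CPM), the matrix metalloprotease gene Mmp16 (50.5 against 9.97 CPM) and the efflux pump gene Abcc1 (60.5 against 7.98 CPM). A single active cell held 47.8% of the Nrg3 reads of its group. Asb4, Zfp91, Fam160b1 and Cdc45 completed the 11 named here, with log2 ratios of 2.74, 2.71, 2.49 and 2.22.

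Lower in active cells was most widely Capns1, the small regulatory subunit of the calpain proteases that calcium activates. It was at 15.6 CPM (15.3 to 15.9) in active cells, against 80.9 CPM (80.1 to 81.7) in silent cells, a log2 ratio of -2.30 with -3.54 in cFOS+ and -1.09 in cFOS- cells. A level of 10 CPM was reached in 16 of 87 active cells (18.4%) and 32 of 69 silent cells (46.4%), and the highest cells were at 199.6 and 1073 CPM. By day its ratio was 0.31. Jmjd4, a lysyl hydroxylase, was at 9.68 CPM in active and 84.2 CPM in silent cells (-3.00), with 6 (6.90%) and 18 cells (26.1%) at 10 CPM. Irf9, the DNA-binding part of the interferon-stimulated factor ISGF3, was at 4.88 and 31.8 CPM (-2.48) and also lower in active cells by day (7.43 against 45.1 CPM). Sbno2, Zfp952, Sat2, Haus8, Cwf19l1, Adssl1, Rcor3, Lenep and Cyp20a1 completed the 12, with log2 ratios from -2.74 (Sbno2) to -1.99 (Cyp20a1).

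**Figure D5:**
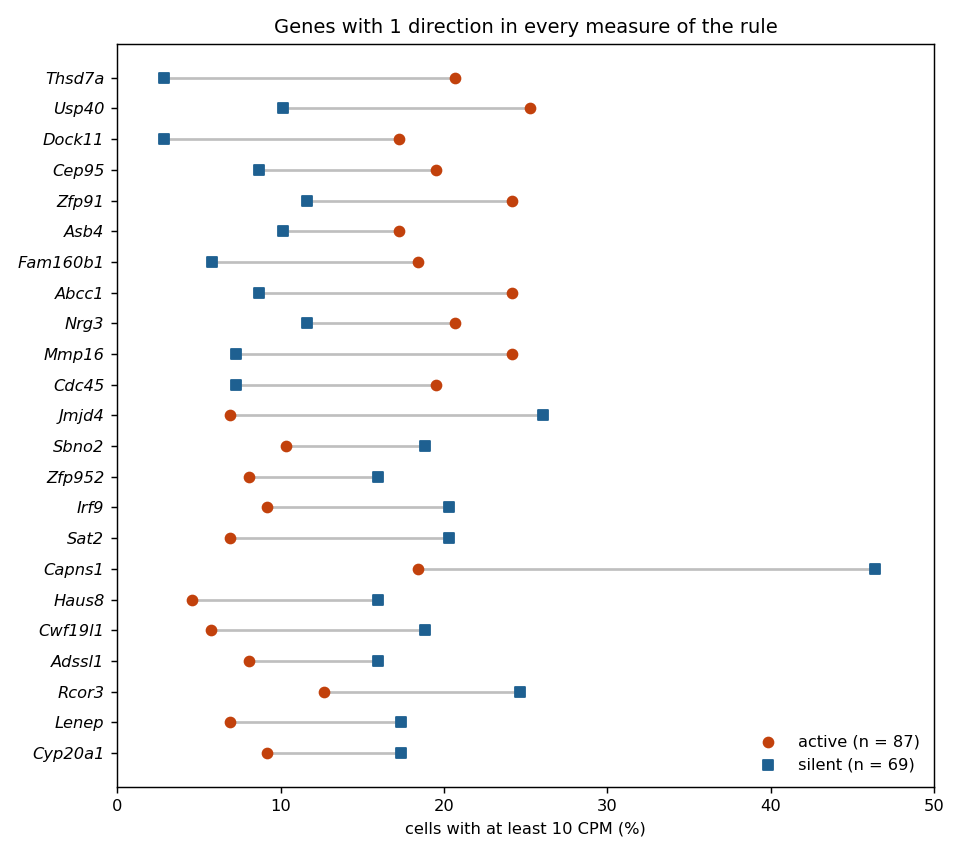
Percent of active cells (circles, n = 87) and silent cells (squares, n = 69) with at least 10 CPM of each of 23 genes named by rule. The pairs range from 20.7% of active against 2.90% of silent cells for Thsd7a to 18.4% against 46.4% for Capns1, and no gene reached a majority of cells in either group.

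Across the table, the differences seen in one cFOS label were mostly not those seen in the other. Of 11831 genes, 51.2% had the same sign in cFOS+ and cFOS- cells, and the 2 sets of log2 ratios, which come from separate cells, correlated across genes at Pearson r of 0.06 and Spearman rho of 0.05; genes are not independent replicates. At least 2-fold higher in active cells in both labels were 550 genes and at least 2-fold lower in both 470. Among the same 11831 genes, 1913 were 2-fold higher in cFOS+ and 2263 in cFOS- cells, and 2097 and 1655 were 2-fold lower. Whether the shared counts exceed those of unrelated sets was not tested. The size of the ratios followed the level. The median absolute log2 ratio was 0.81 for genes under 20 CPM and 0.29 for genes of at least 100 CPM.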

How the data were processed

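The authors deposited raw counts per gene symbol for each cell and, as a second table, a normalized signal that is those counts over a single factor for each cell, within a relative error of 1e-06. A further deposited table, the logarithm of that signal, was not used. Per the labels' protocols, cytoplasm was drawn into a patch pipette and libraries were made with Nextera XT. Per the submitters' processing notes, STAR, DESeq2 and the build GRCm38.p4 were used, with no role stated. Tool versions, annotation, counting tool and strand setting were not stated there, and the counts of overlapping genes or close paralogs are therefore uncertain. Counts are of reads, as no protocol mentions molecular identifiers, and intervals cover counting error only.

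Groups were taken from the labels, and 1 of the night silent cells was left out because its profile nearly equalled that of another. Counts were scaled to CPM by each column sum, pooled within each group, and compared as log2 ratios with a pseudocount of 1 for genes at 5 CPM or more in a group. Shares of cells have exact Clopper-Pearson 95% intervals, which treat cells as independent draws. Whether 2 such intervals overlap is therefore no test between the groups. No test was run, because no label names an animal or slice. The computation was checked on simulated data (python 3.11.15, numpy 2.4.6, pandas 2.3.3, scipy 1.17.1). No cell was removed for quality, no doublet caller was run since each library came from 1 pipette, and 0 columns of per-cell values lacked a sample.

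The groups, the 31 gene lists, the markers and the rule for further genes were chosen with earlier results of these data known. List members may be named freely. Further genes, 12 per direction, needed 20 CPM in a group, 10 CPM in 15% of that group's cells and 1 direction in 9 measures (pooled, within each cFOS label, mean over cells, share of cells, without the top cell of each group, without cells with microglia markers, and cell numbers below and above 400). Genes for ribosomal proteins, predicted genes and those of the mitochondrial genome were not eligible, and the rest were ranked by the smallest ratio over pooled, mean and without-top-cell values. Gene positions are from GENCODE M21 (GRCm38) and promoter windows from RefSeq (GRCm38.p6). Alternatives were the pseudocount, the level limit, the cells included, thinning to 3180000 reads per cell, the normalized table, and the other cell of the pair. A few genes are not reported here.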

Additional observations from a re-analysis of the deposited data

Results flagged for a closer look

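Among gene lists with at least 5 measured genes, 8 had a median log2 ratio of active over silent night cells of opposite sign in cFOS+ and cFOS- cells and at least 0.1 from 0 in both, and none of these differences was tested. The cytosolic ribosomal protein genes had a median of 0.5111 in cFOS+ and -0.4049 in cFOS- cells, and the mitochondrially encoded genes 0.2311 and -0.2627. Microglia markers were at 0.1632 in cFOS+ and -0.4167 in cFOS- cells, neuron markers at 0.196 and -0.1074, and heat shock and cold-inducible genes at 0.1439 and -0.1339. In the other direction, cAMP and calcium signalling genes were at -0.1823 in cFOS+ and 0.1176 in cFOS- cells, peptide receptors at -0.3008 and 0.1021, and sodium and leak channels at -0.1017 and 0.2694. Opposite signs with a median under 0.1 from 0 in 1 label were found in the clock, SNARE and synaptic vesicle, inflammatory, sodium potassium ATPase and voltage-gated potassium channel lists, of which the inflammatory genes were at 0.08 in cFOS+ and -1.42 in cFOS- cells. Each label compares its own cells, 41 active with 34 silent in cFOS+ and 46 active with 35 silent in cFOS-.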

How the results depend on the processing

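The counts of genes at least 2-fold higher in night active cells and of genes at least 2-fold lower in night active cells depended on the number of cells and on low levels. Against 1433 higher and 1226 lower genes, cell numbers above 400 alone gave 2319 higher and 2143 lower, cFOS- cells alone 2363 higher, cFOS+ cells alone 2183 lower, a limit of 20 CPM 760 higher and 590 lower, and a pseudocount of 5 798 lower. With the level limit applied anew to the cells kept, the members higher in active cells ranged from 20 to 32 for immediate early genes, 12 to 20 for clock genes and 6 to 11 for peptides over 18 alternatives, all within 1.5 times the counts given. Of 134 named genes, 95 kept their direction in all 16 alternatives run for single genes, as did the 23 genes given from the naming rule, which had required it for several of them. Of 78 named genes at 2-fold, 71 did, and the exceptions were these. Vip was at -0.47 without Vip cells, a set chosen by Vip itself, and at -1.06 among cell numbers above 400, and Nts was at -3.44 there. Trh was at 0.26 in cFOS- cells, Mobp at 0.089 in the normalized table and Vax1 at 0.42 without Vip cells. Without cells with microglia markers Dlx1 was at 0.045. Zic1 was at 0.059 among cell numbers below 400 and 0.60 without the 39 cells that had the fewest genes. The causes were not tested. No paired analysis was possible because the labels number no replicates across the groups and only 1 cell number in the titles is shared, by an active cFOS- and a silent cFOS+ cell, whose profiles correlated at no more than 0.636. Every cell had at least 3187057 reads, so depth limits these values less than the number of cells, since a transcript held by few cells takes its pooled level from them.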
